A study of Mus musculus with 4 samples.

Results

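S100a8 and S100a9 encode the 2 chains of calprotectin, and the results below describe these 2 genes among the 22631 genes counted in 4440 CD45+ cells of mouse tumours. They were chosen by name and are followed across the authors' major cell types, the authors' neutrophil subsets and the treatment. All values were counted as unique molecular identifiers (UMIs), each of which marks 1 captured RNA molecule. A level is given in CPM, a gene's UMIs per 1000000 UMIs of the same cells, with no scaling by transcript length.

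The cells came from MC38 colon carcinomas grown in the flank of IL-12p40-IRES-EYFP mice, which report the p40 chain of interleukin 12 through a yellow fluorescent protein; every tumour came from this genotype. After 7 days of growth, 2 of the mice received 5 mg/kg of an agonist anti-CD40 antibody into the peritoneum and 1 mouse stayed untreated; the tumours were taken 2 days later. CD40 is a receptor on antigen-presenting cells, and an agonist antibody switches it on. CD45+ cells, that is, cells of the blood lineage, were sorted after labelling with the dead-cell dye 7AAD and encapsulated by inDrops, a droplet method for single-cell RNA sequencing. The tumours are called anti-CD40 tumour 1, anti-CD40 tumour 2 and the untreated tumour here, and each was spread over 4 libraries. In sequencing, anti-CD40 tumour 1 shared pools 1 and 2 with the untreated tumour, while anti-CD40 tumour 2 filled pools 3 and 4. A transplanted cell line is the tumour model here, the ages and sexes of the mice are not given in the labels, and with 1 untreated tumour every p-value assumes that it varies like the treated ones.

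S100a8 and S100a9 are small calcium-binding proteins that pair with each other and make up a large part of the protein in the cytosol of neutrophils. Once released, calprotectin binds zinc and manganese, which starves microbes of these metals, and it is a ligand of the receptor TLR4 and of the receptor for advanced glycation end products (Ager). Monocytes also make both chains and lose them as they turn into macrophages, and in tumours S100a8 and S100a9 are used as markers of neutrophils and of suppressive myeloid cells.

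Both genes lie on chromosome 3 of GRCm38 in a row of S100 genes. S100a8 (ENSMUSG00000056054) spans 90668978 to 90670035 on the plus strand, and S100a9 (ENSMUSG00000056071) spans 90692632 to 90695721 on the minus strand. They lie 22596 bases apart with 0 annotated genes between them in GENCODE vM21, and 0 annotated genes overlap either of them. Each has 3 exons, with a transcript of 486 bases for S100a8 and transcripts of 512 and 519 bases for S100a9. The coding parts are 267 and 339 bases long. Together with them, 12 S100a genes lie within 2 Mb.

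The stretch just before each gene is shown because both genes moved together across cells. The sequences are RefSeq's for GRCm38.p6, which held both genes, and end at the last base before the annotated transcripts. Capitals mark matches, on either strand, to the C/EBP motif TTNNGNAA and the PU.1 motif GAGGAA, 2 factors of myeloid cells; no match shown overlaps another.
S100a8, chr3:90668821-90668977, plus strand: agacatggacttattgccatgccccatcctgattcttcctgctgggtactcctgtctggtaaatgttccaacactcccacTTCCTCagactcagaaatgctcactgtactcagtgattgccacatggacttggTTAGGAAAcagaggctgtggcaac
S100a9, chr3:90695722-90695971, minus strand: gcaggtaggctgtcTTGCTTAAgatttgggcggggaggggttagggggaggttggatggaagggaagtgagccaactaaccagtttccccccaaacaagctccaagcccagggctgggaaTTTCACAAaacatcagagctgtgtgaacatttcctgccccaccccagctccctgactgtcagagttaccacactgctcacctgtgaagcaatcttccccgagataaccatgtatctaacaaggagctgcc
The C/EBP motif began 117 bases before the RefSeq start of S100a8 and 236 and 130 bases before that of S100a9; 40.7% of 32851 mouse promoter windows of the same length (250 bases before to 50 after the start) hold it. The PU.1 motif, which 28.3% of windows hold, was found in the S100a8 window, 170 and 36 bases before the start, and not in that of S100a9. A TATAAA motif, which 13.6% of windows hold, began 30 bases before the start of S100a8. In S100a9 it began at the RefSeq start itself. The letters of the STAT motif TTCNNNGAA (in 8.30% of windows), the AP-1 motif TGANTCA (7.81%) and the NF-kB motif (1.63%) are in neither window. A match describes the letters and not binding.

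The 4440 cells held 3961141 UMIs, with 1226, 1815 and 1399 cells in anti-CD40 tumour 1, anti-CD40 tumour 2 and the untreated tumour. The median cell held 979, 865 and 433 UMIs in the same order, so that the untreated cells were the shallowest. No cell barcode was shared between libraries. The authors' neutrophils fitted their name by 11 markers that leave S100a8 and S100a9 out: 11, 11 and 10 of the 11 had UMIs in the neutrophils of the 3 tumours. Summed, these markers stood at 38260, 28536 and 21817 CPM there and at 494, 698 and 430 in the other myeloid cells. Ly6g, a surface protein used to sort mouse neutrophils, had 0 UMIs in the 49 untreated neutrophils.

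S100a8 and S100a9 were highest in neutrophils in every tumour. Neutrophils made up 57.1%, 11.8% and 3.50% of the cells of anti-CD40 tumour 1, anti-CD40 tumour 2 and the untreated tumour, and they held 97.7%, 88.9% and 90.2% of the UMIs of the 2 genes. In neutrophils of anti-CD40 tumour 1, S100a9 had the highest and S100a8 the second highest level of 8895 genes with a UMI. In anti-CD40 tumour 2 they ranked 2 and 5, with the chemokine gene Cxcl2 in front, and in the untreated tumour they ranked 4 and 8, with the ferritin gene Fth1 in front. These levels describe clusters that the authors named from the same cells, so no test was made between cell types.

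S100a8 stood at 32301 CPM (95% exact Poisson interval 31886 to 32721, 23023 UMIs) in the neutrophils of anti-CD40 tumour 1. It stood at 19086 (18439 to 19749, 3294 UMIs) in those of anti-CD40 tumour 2 and at 8650 (7501 to 9925, 203 UMIs) in those of the untreated tumour. In the authors' class of monocytes, macrophages and dendritic cells, called other myeloid cells here, S100a8 stood at 1126 (1043 to 1215), 242 (217 to 269) and 36.8 (22.8 to 56.3) CPM in the same order of tumours. The neutrophil level thus exceeded that of the other myeloid cells in each tumour, and these intervals, like all intervals given here, cover counting error only. T cells had 554 (355 to 825), 252 (166 to 367) and 13.1 (0.331 to 72.8) CPM. The intervals of the other myeloid cells and the T cells overlapped in anti-CD40 tumour 2 and in the untreated tumour. NK cells had 0, 40.9 (13.3 to 95.5) and 0 CPM, and B cells had 0 in each tumour.

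S100a9, too, was highest in neutrophils. Its level was 44304 CPM (43817 to 44796, 31578 UMIs) in neutrophils of anti-CD40 tumour 1, 28825 (28030 to 29638, 4975 UMIs) in those of anti-CD40 tumour 2 and 14530 (13029 to 16158, 341 UMIs) in those of the untreated tumour. The other myeloid cells had 923 (848 to 1004), 408 (375 to 442) and 63.2 (44.2 to 87.4). T cells had 485 (300.2 to 741), 421 (307 to 563) and 0 CPM. For anti-CD40 tumour 2 the intervals of other myeloid cells and T cells overlapped. The exact Poisson limit of the 0 in untreated T cells is 48.2, so the intervals overlapped there too. The 1 plasmacytoid dendritic cell of the untreated tumour held 1 UMI of S100a8, and the 2 of anti-CD40 tumour 2 and the 2 untreated basophils held 0 of either gene.

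**Figure D1:**
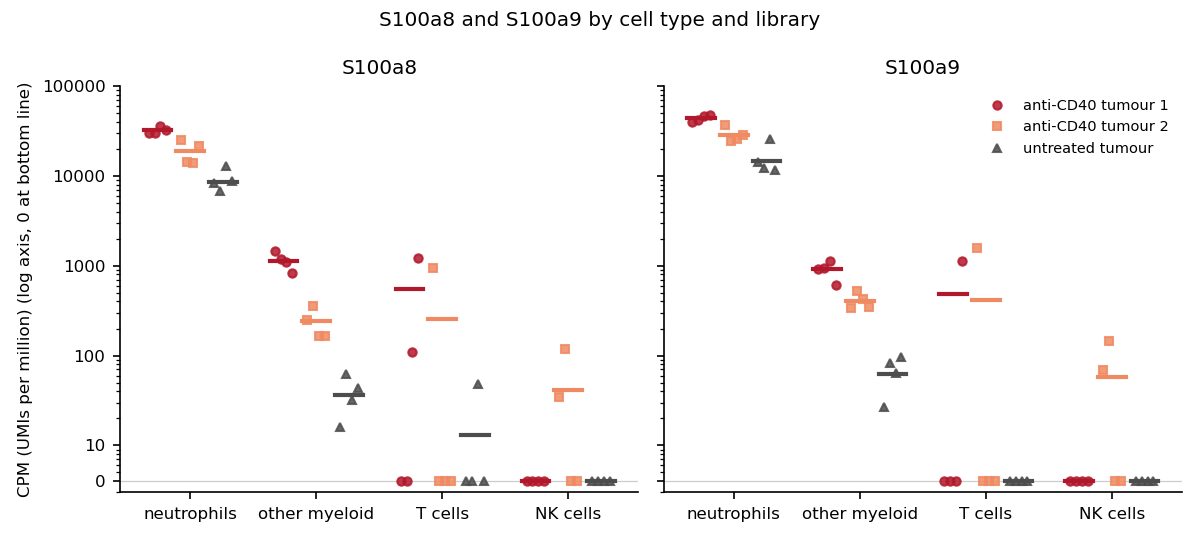
Level of S100a8 (left) and S100a9 (right) in CPM on a log axis with 0 at the bottom line, for 4 cell types; each point is 1 library, and each short line is the level over all cells of a tumour. Neutrophil libraries lie between 6835 and 35431 for S100a8, above the highest other myeloid library, at 1441.

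Did the neutrophils of treated tumours hold more of the 2 genes per molecule of RNA? Each treated tumour had a higher level of both genes, but neither gene passed the test across tumours. In single libraries S100a8 stood at 29807, 30047, 35431 and 32303 CPM in anti-CD40 tumour 1, at 25093, 14122, 13808 and 21574 in anti-CD40 tumour 2, and at 8384, 6835, 12976 and 8665 in the untreated tumour. All 8 treated libraries lay above all 4 untreated ones, by a narrow margin between the lowest treated library, at 13808, and the highest untreated one, at 12976. S100a9 stood at 40214, 41972, 46056 and 46964 in anti-CD40 tumour 1, at 36922, 24324, 25736 and 28573 in anti-CD40 tumour 2, and at 14138, 12224, 25388 and 11553 in the untreated tumour. For S100a9 the groups overlapped, because 1 untreated library of 8 neutrophils reached 25388. The 4 libraries from 1 tumour are technical splits, not replicates, and the share of all genes whose libraries separate this way is not given here.

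Against the untreated neutrophils, the S100a8 level was 3.73-fold higher in anti-CD40 tumour 1 (exact 95% interval of the counts 3.25 to 4.31) and 2.21-fold higher in anti-CD40 tumour 2 (1.91 to 2.56). The S100a9 level was 3.05-fold (2.74 to 3.40) and 1.98-fold (1.78 to 2.22) higher. In edgeR's quasi-likelihood test on UMI sums per tumour, the log2 difference of treated minus untreated neutrophils was 2.13 ± 0.85 (SE, n = 2 and 1 tumours, adjusted p = 0.367) for S100a8. For S100a9 it was 1.89 ± 0.86 (adjusted p = 0.439 in edgeR). So 0 of the 2 genes passed the threshold of 0.05, where 0.442% of the 2713 genes tested did (0.405% as higher and 0.0369% as lower), and 295 of those genes had an unadjusted p under 0.05. DESeq2 on the same sums called both, with 2.30 (adjusted p = 0.0220) and 2.07 (adjusted p = 0.0497). It was given 9409 genes without edgeR's filter, and its own default filter on low counts then set the genes adjusted over. Within pools 1 and 2, where anti-CD40 tumour 1 and the untreated tumour were sequenced together, the differences were 2.34 and 2.31 for S100a8 and 2.00 and 2.06 for S100a9, with no test.

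The scaling set part of these values. The median over all genes tested was 0.29 with edgeR's TMM scaling and -0.28 with plain library sizes, and the differences with plain library sizes were 1.57 for S100a8 and 1.33 for S100a9. With plain library sizes 6 genes were called higher and 8 lower, against 11 and 1 with TMM. Depth and RNA makeup also differed between these neutrophils: the median cell held 926, 668 and 435 UMIs in anti-CD40 tumour 1, anti-CD40 tumour 2 and the untreated tumour, and 13 mitochondrial transcripts summed to 2741, 5052 and 8607 CPM. The 7 monocyte markers summed to 4511, 3164 and 1364 CPM in them, with 5, 4 and 4 of the 7 above 0, while the 7 macrophage markers held 10, 19 and 4 UMIs in all, with 3, 5 and 3 above 0. Their part in the result was not tested.

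Per cell, the 2 genes took a median of 8.14% of a neutrophil's UMIs in anti-CD40 tumour 1, 3.10% in anti-CD40 tumour 2 and 1.26% in the untreated tumour. The neutrophil with the largest share reached 23.3%, 17.3% and 9.93%. More than 10% was taken in 222 of 700 cells (31.7%), in 22 of 215 cells (10.2%) and in 0 of 49 cells. More than 5% was taken in 69.1%, 34.0% and 16.3% of them. The 2 genes also varied together from cell to cell: Pearson's r of their per-cell levels was 0.851, 0.803 and 0.752 over 700, 215 and 49 neutrophils, a description over cells that share library and depth. Both were detected in 646, 189 and 27 of these cells and neither in 16, 12 and 12.

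After each cell was thinned to 300 UMIs, S100a8 had a UMI in 91.8%, 83.0% and 61.0% of neutrophils of anti-CD40 tumour 1, anti-CD40 tumour 2 and the untreated tumour (exact Clopper-Pearson intervals 89.4 to 93.7, 77.1 to 87.9 and 44.5 to 75.8). Unthinned, the shares were 94.7%, 91.6% and 65.3%. Thinned shares for S100a9 were 92.2%, 86.5% and 65.9%, against 95.3%, 90.7% and 65.3% unthinned. Thinning left out 33, 15 and 8 shallower neutrophils. The order of the tumours was thus the same at equal depth.

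**Figure D2:**
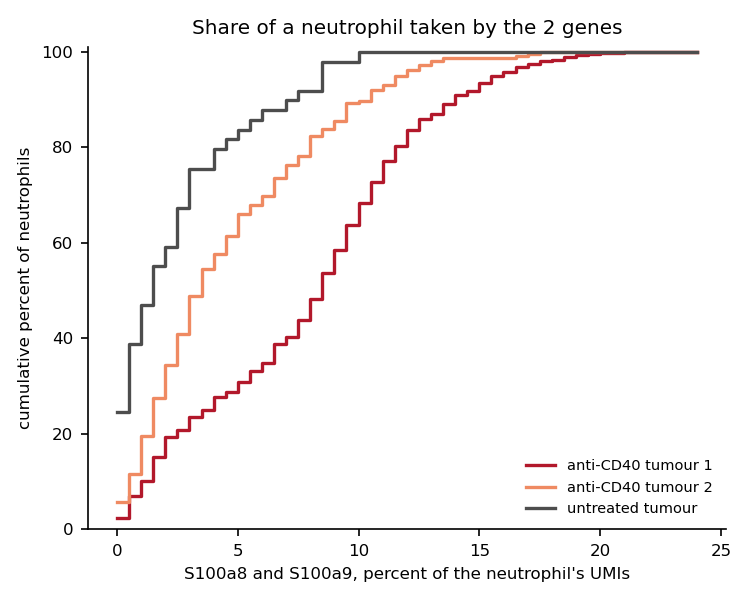
Cumulative percent of neutrophils (vertical axis) by the percent of a cell's UMIs that S100a8 and S100a9 took together (horizontal axis), 1 line per tumour. The medians, where the lines cross 50%, are 8.14%, 3.10% and 1.26% in anti-CD40 tumour 1, anti-CD40 tumour 2 and the untreated tumour.

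The authors' neutrophil subsets formed a gradient in both genes. In both treated tumours S100a8 was highest in N1a, then N1b, N2 and N3, and lowest in N5. Its levels in anti-CD40 tumour 1 were 54329, 38071, 26586, 20595 and 7298 CPM in that order of subsets, over 128, 148, 196, 131 and 96 cells. Those in anti-CD40 tumour 2 were 50307, 35136, 22341, 10939 and 8366, over 16, 14, 44, 74 and 66 cells. Neighbouring subsets had Poisson intervals that did not overlap in either tumour. The untreated tumour held 0 N1a cells, which left 20979 (15302 to 28072) in its 4 N1b cells, 7694 (5828 to 9969) in 14 N2 cells, 7969 (6003 to 10372) in 15 N3 cells and 6610 (4743 to 8967) in 14 N5 cells. There N2, N3 and N5 overlapped. N4 held 1, 1 and 2 cells and is given no level.

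S100a9 followed the same order in both treated tumours. It stood at 58903, 53887, 41726, 34928 and 13485 CPM from N1a to N5 in anti-CD40 tumour 1 and at 61008, 41234, 37255, 20110 and 16275 in anti-CD40 tumour 2. The untreated N1b, N2, N3 and N5 cells stood at 24709, 15524, 13764 and 12413. The S100a9 intervals of N1b (38199 to 44446) and N2 (35201 to 39397) overlapped in anti-CD40 tumour 2. Among the other S100 genes, S100a6 and S100a11 had the same order in anti-CD40 tumour 1: S100a6 stood at 7550 in N1a and 700 in N5, and S100a11 at 3248 and 439. The order did not hold in anti-CD40 tumour 2, where S100a6 stood at 583 in N3 and 654 in N5, and S100a11 at 2623 in N1a and 2656 in N1b. The subsets are clusters of these cells, so the gradient is a description.

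**Figure D3:**
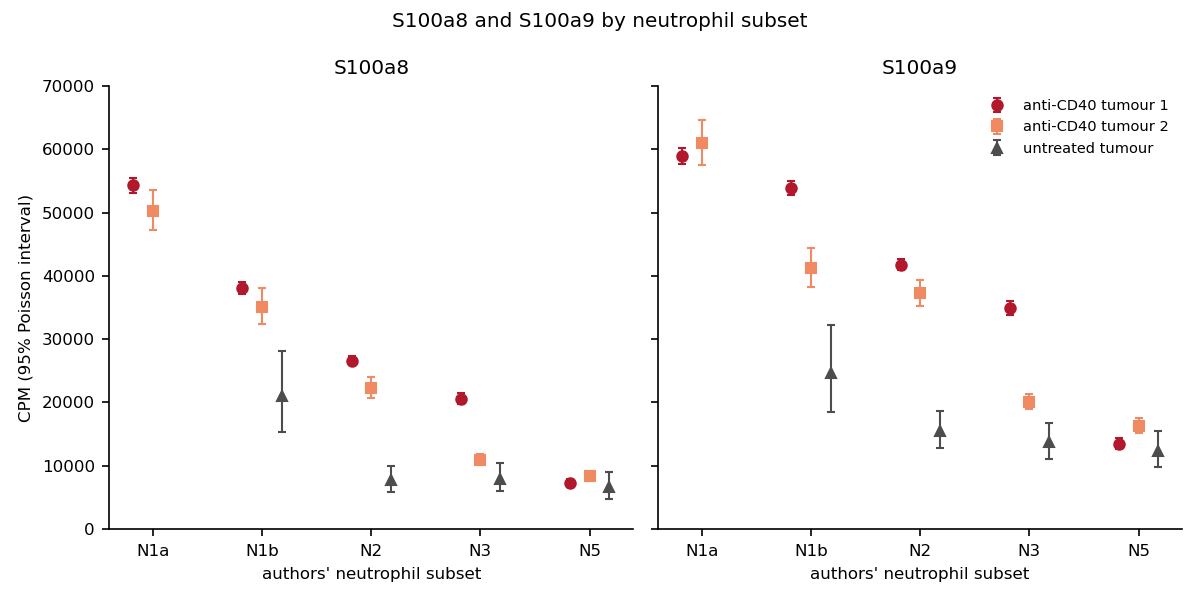
Level of S100a8 (left) and S100a9 (right) in CPM for the authors' neutrophil subsets, with 95% exact Poisson intervals; the untreated tumour had 0 N1a cells. Both treated tumours fall from N1a to N5, where S100a8 stands at 7298 and 8366 CPM beside 6610 in the untreated tumour.

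Within a subset, treated cells stood farthest above untreated ones in N2, and the distance was smaller in N1b, N3 and N5. In N1b, with 4 untreated cells, S100a8 was 1.81-fold (1.35 to 2.49) and 1.67-fold (1.24 to 2.32) higher in anti-CD40 tumours 1 and 2. In N2, S100a8 was 3.46-fold (exact interval of the counts 2.66 to 4.57) and 2.90-fold (2.22 to 3.87) higher in anti-CD40 tumours 1 and 2 than in the untreated tumour. In N3 the folds were 2.58 (1.98 to 3.44) and 1.37 (1.04 to 1.84), and in N5 they were 1.10 (0.803 to 1.56) and 1.27 (0.916 to 1.79), with intervals that include 1. For S100a9 the N2 folds were 2.69 (2.24 to 3.26) and 2.40 (1.98 to 2.93), the N3 folds 2.54 (2.07 to 3.14) and 1.46 (1.18 to 1.82), and the N5 folds were 1.09 (0.861 to 1.39) and 1.31 (1.04 to 1.68). These are folds of counts with no test across tumours, and the difference between subsets was not tested. Without N1a and N1b cells, the edgeR difference over the remaining neutrophils was 1.68 (adjusted p = 0.479) for S100a8 and 1.57 (adjusted p = 0.553) for S100a9. Subset levels of S100a8 were also weighted by the untreated tumour's mix of N1b, N2, N3 and N5, with N1a and N4 left out. Each subset was given its share of UMIs. Anti-CD40 tumour 1 then had a level of 20568, against 26421 with its own mix of these subsets. For anti-CD40 tumour 2 the level was 16253, against 15272 with its own mix. The untreated tumour had 8739. Among these subsets alone, the untreated mix thus lowered the level of anti-CD40 tumour 1 and raised that of anti-CD40 tumour 2. Over all their neutrophils, N1a included, anti-CD40 tumours 1 and 2 stood at 32301 and 19086. Both of these lie above the 20568 and 16253 of the untreated mix.

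The balance of the 2 chains also differed between subsets. UMIs of S100a9 outnumbered those of S100a8 by 1.37 to 1 (exact conditional interval 1.35 to 1.40) in neutrophils of anti-CD40 tumour 1, 1.51 (1.44 to 1.58) in those of anti-CD40 tumour 2 and 1.68 (1.41 to 2.01) in those of the untreated tumour. From N1a to N5 the ratio in anti-CD40 tumour 1 was 1.08, 1.42, 1.57, 1.70 and 1.85, and in anti-CD40 tumour 2 it was 1.21, 1.17, 1.67, 1.84 and 1.95. S100a8 was therefore closest to S100a9 in N1a in anti-CD40 tumour 1 and in N1a and N1b in anti-CD40 tumour 2. The untreated N1b, N2, N3 and N5 cells had 1.18, 2.02, 1.73 and 1.88. A ratio of UMIs compares molecules captured, and the capture of the 2 transcripts may differ.

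In the other myeloid cells, which are monocytes, macrophages and dendritic cells, S100a9 rose with anti-CD40 in the main edgeR test and S100a8 did not pass it. Both outcomes depended on the setting. S100a8 stood at 1441, 1201, 1089 and 838 CPM in the libraries of anti-CD40 tumour 1, at 246, 355, 166 and 164 in those of anti-CD40 tumour 2 and at 16.2, 61.9, 31.6 and 44.1 in those of the untreated tumour. S100a9 stood at 923, 941, 1127 and 607 in anti-CD40 tumour 1, at 337, 523, 427 and 349 in anti-CD40 tumour 2 and at 27.1, 82.6, 63.3 and 97.0 in the untreated tumour. The treated and untreated libraries did not overlap for either gene, but libraries are technical splits of the tumours. The share of all genes that separate this way is not given here. Against the untreated tumour, the S100a8 level was 30.6-fold (19.8 to 49.7) and 6.57-fold (4.23 to 10.7) higher in anti-CD40 tumours 1 and 2, and the S100a9 level 14.6-fold (10.4 to 21.1) and 6.45-fold (4.61 to 9.30) higher.

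The log2 difference of treated minus untreated other myeloid cells was 3.37 ± 0.55 for S100a9 (SE, n = 2 and 1 tumours, edgeR adjusted p = 0.0203) and 4.15 ± 1.33 for S100a8 (adjusted p = 0.536). The 2 treated tumours differed more from each other for S100a8, at 1126 and 242, than for S100a9, at 923 and 408. In this comparison 0.409% of 7099 genes passed, 0.169% as higher and 0.239% as lower. The S100a9 call did not hold in edgeR without pool 2 (3.67, adjusted p = 0.127), without pool 4 (3.32, adjusted p = 0.101), without the shallowest 10% of cells (3.30, adjusted p = 0.0901) or without cells with a UMI of 6 neutrophil genes (3.89, adjusted p = 0.221). It did not hold either without the cells carrying 3 or more marker UMIs from another class (2.87, adjusted p = 0.668), which held 543, 690 and 25 of the 1221, 945 and 57 UMIs of the 2 genes in anti-CD40 tumour 1, anti-CD40 tumour 2 and the untreated tumour. DESeq2 gave 3.41 (adjusted p = 8.76e-05) for S100a9 and 4.20 (adjusted p = 0.820) for S100a8. In edgeR S100a8 passed with plain library sizes (4.20, adjusted p = 0.00169), with no filter (4.18, adjusted p = 8.30e-10) and with cells thinned to 300 UMIs (4.33, adjusted p = 1.69e-08). It did not pass when any pool was left out. The 11 neutrophil markers summed to 494, 698 and 430 CPM in the other myeloid cells of anti-CD40 tumour 1, anti-CD40 tumour 2 and the untreated tumour, with 9, 11 and 9 of the 11 above 0, and Mmp9 and Stfa2l1 at 0 in anti-CD40 tumour 1.

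The level of each gene in other myeloid cells can be set against its level in the neutrophils of the same tumour. In anti-CD40 tumour 1 the other myeloid cells had 3.49% of the neutrophils' S100a8 level and 2.08% of their S100a9 level, beside 1.29% for the 11 neutrophil markers summed. The single markers ran from 0 for the gelatinase gene Mmp9 and for Stfa2l1, with 0.0686% for Retnlg, a secreted resistin-like protein, and 0.233% for the chemokine receptor gene Cxcr2, to 2.10% for the growth factor receptor gene Csf3r, 6.75% for the decoy receptor gene Il1r2 and 7.33% for the receptor gene Trem1. The 2 genes thus lay within the range of the markers. In anti-CD40 tumour 2 S100a8 and S100a9 were at 1.27% and 1.41%, below the 2.45% of the summed markers, and single markers ran from 0.439% for Ly6g to 8.69% for Trem1. In the untreated tumour they were at 0.426% and 0.435%, below the 1.97% of the summed markers, and single markers ran from 0 for Stfa2l1 to 9.88% for Mmp8.

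To see which of these cells held the molecules, each cell with at least 2 UMIs of monocyte, nonclassical monocyte, macrophage or dendritic markers was placed by the list with most UMIs in it; these are ranges of a score and not cell types. The lists leave S100a8 and S100a9 out, and 56, 107 and 111 cells stayed unplaced. Cells in the monocyte range numbered 168, 132 and 132 in anti-CD40 tumour 1, anti-CD40 tumour 2 and the untreated tumour, of which 19, 30 and 23 lay near the limit of the range. S100a8 stood at 2107 (1949 to 2276), 664 (552 to 793) and 0 CPM in them, where the exact Poisson limit of the 0 is 46.8. Against a floor of 3 counts over the untreated cells of this range, 38.1 CPM, it was at least 55.4-fold and 17.5-fold higher in the treated tumours. S100a9 stood at 1728 (1584 to 1881), 729 (611 to 863) and 25.4 (3.07 to 91.6), or 68.1-fold (18.8 to 564) and 28.7-fold (7.80 to 240) higher, with 2 UMIs in the untreated cells. At least 1 UMI of S100a8 was found in 53.0%, 11.4% and 0 of the cells of this range. These shares were not thinned, and the median cell of the range held 1776, 1372 and 519 UMIs, so depth differs between them.

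Macrophage-range cells, marked by the complement genes C1qa, C1qb and C1qc and by Apoe, differed between the treated tumours. S100a8 stood at 39.0 (15.7 to 80.3), 188 (163 to 215) and 44.6 (26.8 to 69.6) CPM in anti-CD40 tumour 1, anti-CD40 tumour 2 and the untreated tumour, over 159, 1008 and 839 cells. S100a9 stood at 27.8 (9.04 to 65.0), 387 (351 to 425) and 79.7 (55.2 to 111). Anti-CD40 tumour 2 was therefore above the untreated tumour, 4.22-fold (2.63 to 7.15) for S100a8 and 4.85-fold (3.42 to 7.09) for S100a9. In anti-CD40 tumour 1 the folds were 0.875 (0.311 to 2.17) and 0.349 (0.107 to 0.897). Dendritic-range cells held 0, 1 and 0 UMIs of S100a8 and 4, 1 and 0 of S100a9, in 52, 71 and 36 cells. Nonclassical monocyte-range cells, 13, 12 and 18 in number, held 4, 0 and 0 UMIs of S100a8 and 1, 0 and 0 of S100a9. Without the monocyte range, edgeR gave 1.77 (adjusted p = 0.00204) for S100a8 and 1.83 (adjusted p = 0.000501) for S100a9 over the remaining other myeloid cells. In those cells S100a8 stood at 73.1, 180 and 42.8 CPM and S100a9 at 59.2, 361 and 69.2 in anti-CD40 tumour 1, anti-CD40 tumour 2 and the untreated tumour, so for S100a9 only anti-CD40 tumour 2 was above the untreated tumour.

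**Figure D4:**
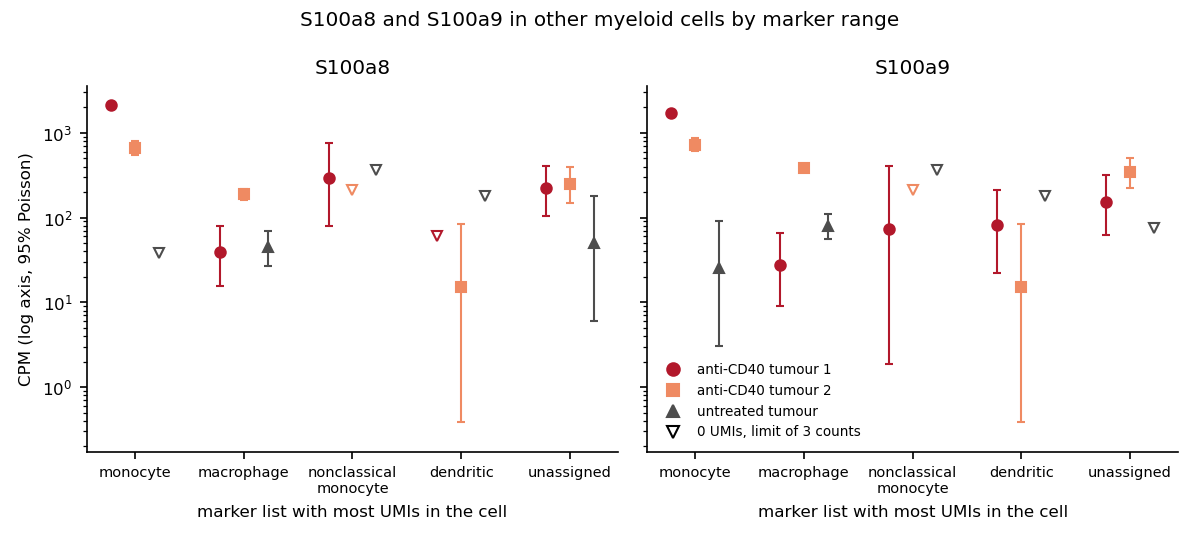
Level of S100a8 (left) and S100a9 (right) in CPM on a log axis for other myeloid cells, placed by the marker list with most UMIs, with 95% exact Poisson intervals; open triangles mark 0 UMIs at the limit of 3 counts. The monocyte range stands at 2107 and 664 for S100a8 in anti-CD40 tumours 1 and 2, against a limit of 38.1 in the untreated tumour.

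The other myeloid cells were then split by how many UMIs of the 11 neutrophil markers they held, a split chosen after the values were seen. In anti-CD40 tumour 1, the monocyte-range cells with 0 such UMIs, 103 in number, still held 221 UMIs of S100a8 and 138 of S100a9, which is 1443 and 901 CPM. Their ratio of S100a9 to S100a8 was 0.624 (0.501 to 0.776), below the 1.37 (1.35 to 1.40) of the neutrophils of the same tumour. In the 20 monocyte-range cells with 3 or more marker UMIs, the ratio was 1.16 (0.976 to 1.38), on 251 and 291 UMIs. Of 33 other myeloid cells of this tumour with at least 10 UMIs of the 2 genes, 10 held 0 UMIs of the neutrophil markers. The single richest cell held 61 UMIs of S100a8 and 120 of S100a9 with 16 of the neutrophil markers.

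The molecules of anti-CD40 tumour 2 sat mostly in cells with neutrophil markers. The 85 other myeloid cells with 3 or more marker UMIs held 241 of the 352 UMIs of S100a8 and 449 of the 593 of S100a9, at 1835 and 3419 CPM. The 980 cells with 0 marker UMIs stood at 66.0 and 83.0. Among the first of these groups, the 60 macrophage-range cells had a ratio of 2.19 (1.80 to 2.66), above the 1.51 (1.44 to 1.58) of this tumour's neutrophils. In the untreated tumour, 952 cells with 0 marker UMIs held 6 UMIs of S100a8 and 14 of S100a9, or 12.9 and 30.2 CPM. The part of cells captured together with a neutrophil was not tested.

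**Figure D5:**
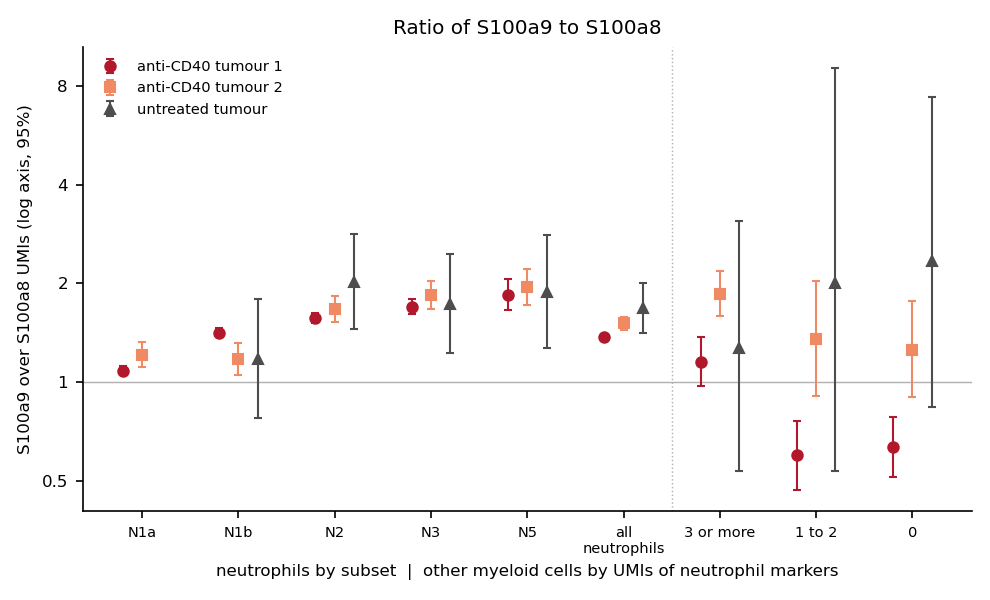
Ratio of S100a9 to S100a8 UMIs on a log axis with 95% exact conditional binomial intervals, for neutrophils by subset and in all (left of the dotted line) and for other myeloid cells by their UMIs of 11 neutrophil markers (right). Other myeloid cells of anti-CD40 tumour 1 with 0 such UMIs stand at 0.635, below all neutrophils of that tumour at 1.37.

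Thinned to 300 UMIs per cell, S100a8 had a UMI in 14.6%, 3.17% and 0.585% of the other myeloid cells of anti-CD40 tumour 1, anti-CD40 tumour 2 and the untreated tumour, and S100a9 in 9.07%, 3.88% and 1.40%. Unthinned, the shares were 23.0%, 6.47% and 1.14% for S100a8 and 15.6%, 6.54% and 1.85% for S100a9. T cells, which should lack both genes, had thinned shares of 6.38%, 0.787% and 0 for S100a8 and 2.13%, 0.787% and 0 for S100a9, where 0 of 124 untreated cells allows up to 2.93% (Clopper-Pearson). Median depth was 1059, 922 and 425 UMIs in other myeloid cells and 778, 651 and 476 in T cells. The untreated shares of other myeloid cells lay below this limit and could not be told apart from those of T cells. In both treated tumours the intervals of other myeloid cells and T cells overlapped as well, for S100a8 in anti-CD40 tumour 1 at 11.3 to 18.3 and 1.34 to 17.5, so a share of cells at this depth does not set the other myeloid cells apart from T cells.

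In T cells both genes passed the edgeR test, but 2 cells held nearly all of the UMIs. The adjusted p in edgeR was 1.01e-05 for S100a8, with 24, 27 and 1 UMIs in anti-CD40 tumour 1, anti-CD40 tumour 2 and the untreated tumour. S100a9, with 21, 45 and 0 UMIs, had an adjusted p of 2.95e-09 in edgeR and was at least 12.4-fold and 10.7-fold higher in the treated tumours against a floor of 3 counts. In this comparison 2.09% of 1865 genes passed, 1.02% as higher and 1.07% as lower. In anti-CD40 tumour 1 a T cell with 12 UMIs of neutrophil markers held 21 UMIs of each gene, and in anti-CD40 tumour 2 a T cell with 55 such UMIs held all 27 and 45. Without the richest cell of each tumour neither gene had enough UMIs to be tested, and DESeq2 gave an adjusted p of 0.998 for both. Without pool 3, edgeR gave adjusted p-values of 0.872 for S100a8 and 0.119 for S100a9. NK cells held UMIs of the genes in anti-CD40 tumour 2 alone, 12 in 2 cells, and neither gene passed the filter on low counts; 1.89% of the 794 genes tested there passed, 1.01% as higher and 0.882% as lower.

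Summed over all CD45+ cells, as bulk RNA of the sort would show, the 2 genes took 4.02% of all UMIs in anti-CD40 tumour 1, 0.499% in anti-CD40 tumour 2 and 0.0852% in the untreated tumour. S100a8 stood at 17050, 1975 and 319 CPM and S100a9 at 23110, 3018 and 533. Such a sum does not tell fewer cells of a type from less RNA per cell. The log2 differences of treated minus untreated were 5.19 ± 1.85 for S100a8 and 4.91 ± 1.80 for S100a9 (SE, n = 2 and 1 tumours, edgeR adjusted p = 0.830 for both). Of 8980 genes 0 passed in edgeR (0%), with 473 at an unadjusted p under 0.05 and 29 calls in DESeq2, where the 2 genes had adjusted p-values of 0.298 and 0.333.

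Whether the treatment difference itself differed between neutrophils and other myeloid cells was tested as an interaction in edgeR with the tumour as a block. It was -0.98 ± 0.84 (SE, adjusted p = 0.938) for S100a8 and -0.66 ± 0.81 (adjusted p = 0.950) for S100a9, where 0.0779% of 7700 genes passed, all as higher (0% as lower); with plain library sizes 2 passed as higher and 4 as lower. A negative value means a smaller treated-minus-untreated difference in neutrophils than in other myeloid cells. The median over all genes was 1.83 in this fit, so both genes lay below it, and with plain library sizes they stood at -2.30 and -1.97 beside a median of 0.74. Without the monocyte-range cells the values were 0.72 and 0.73, with adjusted p-values of 1 for both.

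The genes most like the pair were ranked by Pearson's r with the mean log2 level of S100a8 and S100a9, as a description. Over 13 profiles of cell type and tumour and 4985 genes, the 10 highest were Slpi (0.964), Klf6, Lcn2, Med7, G0s2, Ddit3, Il1r2, H3f3a, Dusp1 and Nt5c2 (0.934). S100a8 and S100a9 themselves had r = 0.993. Slpi, a protease inhibitor secreted by neutrophils, stood at 2837, 2654 and 2088 CPM in neutrophils of anti-CD40 tumour 1, anti-CD40 tumour 2 and the untreated tumour. In the other myeloid cells it stood at 232, 123 and 63.2. It thus shared the order of cell types but spread less between the tumours' neutrophils.

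Over 8 profiles of neutrophil subset in the treated tumours and 1158 genes, the 10 highest were Lcn2 (0.996), Actg1 (0.992), Wfdc21, Actb, Pglyrp1, Retnlg, Alox5ap, Tkt, Ifitm6 and Dhrs7 (0.976), beside 0.990 between the pair. Lcn2, whose protein binds the iron carriers of bacteria, stood at 14709, 8567, 5999, 3005 and 590 CPM from N1a to N5 in anti-CD40 tumour 1. Retnlg stood at 21709, 11154, 5752, 5008 and 809. The cytoplasmic actin genes Actb and Actg1 are near copies, so the split of reads between them is uncertain. The profiles share libraries and depth.

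Of 15 tested genes for metal withholding and secreted antimicrobial proteins, calprotectin's own kind of work, 4 rose in treated neutrophils in edgeR and 0 fell, where 0.405% of all 2713 genes tested rose and 0.0369% fell. Lcn2 stood at 7446, 3830 and 469 CPM in anti-CD40 tumour 1, anti-CD40 tumour 2 and the untreated tumour (log2 difference 4.14 ± 0.91 SE, edgeR adjusted p = 0.00338). Wfdc21, a small secreted protein of the whey acidic protein family, stood at 2328, 1338 and 42.6, the last from 1 UMI (edgeR adjusted p = 0.000619). Ngp, a neutrophil granule protein, stood at 2823, 776 and 0, which is at least 22.1-fold and 6.07-fold higher against a floor of 3 counts. Chil3, a secreted chitinase-like protein with a close copy in the genome, stood at 875, 829 and 85.2, the last from 2 UMIs (edgeR adjusted p = 0.0431). DESeq2 called 3 of the 15, and edgeR with plain library sizes 3. The list's median log2 difference was 2.04, or 0.97 with the genes at 0 in the untreated tumour put at their bound, beside 0.29 over all genes tested. Lyz2, the lysozyme gene, stood at 4229, 2758 and 724 and did not pass (edgeR adjusted p = 0.0952). The untreated tumour held 0 N1a cells. In anti-CD40 tumour 1, Lcn2 stood at 14709 CPM in N1a and 590 in N5, and Wfdc21 at 4037 and 123. Over all genes, fewer were called in neutrophils without N1a and N1b. The part of the subset mix in these calls was not tested.

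The 10 tested granule genes share Lcn2, Ngp and Chil3 with that list, and the only other one to rise in edgeR was Mmp8, the neutrophil collagenase, at 4168, 2428 and 213 CPM in anti-CD40 tumour 1, anti-CD40 tumour 2 and the untreated tumour (4.51 ± 0.96 SE, edgeR adjusted p = 0.00175). DESeq2 called 2 of the 10. Mmp9 stood at 2149, 962 and 1534 and did not pass. Of the 11 neutrophil markers, Mmp8 and Retnlg rose (Retnlg 3.31, edgeR adjusted p = 0.0409). Retnlg, too, was highest in N1a in anti-CD40 tumour 1, and the part of the subset mix in the granule and marker calls was not tested. Of 4 tested monocyte markers, Ly6c2 and Chil3 rose in neutrophils too (Ly6c2 at 807, 458 and 42.6, the last from 1 UMI, edgeR adjusted p = 0.0431). Neither of these was called with plain library sizes or in DESeq2. Over all genes tested, 0.405% rose. Other lists had 0 calls in neutrophils in edgeR and in DESeq2: the 7 tested genes of NADPH oxidase, the enzyme of the oxidative burst, the 7 of calprotectin receptors and signalling, the 8 transcription factors, the 6 of release and cell death and the 2 other S100 genes. At an unadjusted p under 0.05 there were 2, 0, 2, 0 and 0 of them.

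Among calprotectin receptor genes in neutrophils, Cd14, which hands ligands to TLR4, stood at 6302, 5383 and 4559 CPM in anti-CD40 tumour 1, anti-CD40 tumour 2 and the untreated tumour. Tlr4 itself stood at 153, 151 and 170. Cebpb, a C/EBP factor, stood at 7164, 7602 and 3579, and Spi1, which encodes PU.1, at 1017, 608 and 724. Il1b, an inflammatory cytokine gene, stood at 16262, 20059 and 20837. None of these passed the test. The receptor and signalling list had 7 of 7 positive differences with TMM scaling and 3 of 7 with plain library sizes. S100a6 stood at 4226, 1895 and 1832 and S100a11 at 2197, 1501 and 2770.

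In the other myeloid cells 0 genes of these functional lists passed in edgeR or DESeq2, where 0.169% of all 7099 genes tested rose and 0.239% fell in edgeR, though with plain library sizes edgeR called 1 metal-withholding gene and 1 transcription factor gene. The metal-withholding list had 12 tested genes with a median log2 difference of 1.03, beside 0.02 over all genes, and 3 with an unadjusted p under 0.05. The 7 granule genes had a median of 1.33 and 3 such genes. The 6 other S100 genes had a median of -0.06 and 0 such genes: S100a6 stood at 1964, 1584 and 2007 CPM and S100a4 at 772, 858 and 876 in anti-CD40 tumour 1, anti-CD40 tumour 2 and the untreated tumour. Medians were 0.16 for 7 NADPH oxidase genes, -0.01 for 10 receptor and signalling genes, 0.16 for 9 transcription factors and 0.15 for 6 genes of release and cell death, with 0, 1, 2 and 1 at an unadjusted p under 0.05. Cebpb stood at 2468, 2408 and 784 (log2 difference 1.65, edgeR adjusted p = 0.202). Of the 7 macrophage markers, 0 passed and all 7 were lower, with a median of -1.03. The summed monocyte markers stood at 5969, 1956 and 2832 and the summed macrophage markers at 3957, 14595 and 18853, and the dendritic markers at 1721, 1123 and 472, with 4, 6 and 6 of 8 above 0. The nonclassical monocyte markers summed to 1063, 614 and 942, and of the 6 tested 3 had positive and 3 negative differences. Among the marker lists 2 genes rose in edgeR and 1 fell. The dendritic marker Fscn1 stood at 958, 615 and 137 CPM (log2 difference 2.52 ± 0.45 SE, edgeR adjusted p = 0.0203), and the nonclassical monocyte marker Adgre4 at 85.6, 46.7 and 5.26, the last from 3 UMIs (edgeR adjusted p = 0.0255). The tumour epithelial marker Cdh1 stood at 3.36, 14.4 and 118 (edgeR adjusted p = 0.0277). Of the 5 tumour epithelial markers it was the 1 gene tested. Summed, the 5 stood at 5.04, 15.1 and 119 CPM, with 2 of 5 above 0 in each tumour. The part of these marker differences in the S100a9 result was not tested.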

How the data were processed

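CD45+ cells of 3 mouse tumours were profiled by inDrops in 12 libraries and 4 pools. The authors deposited UMI counts per gene and cell, 1 table a pool, with a table of each cell's library, treatment, major cell type and neutrophil subset. bcl2fastq, STAR and GRCm38 are named, per the submitters' processing notes. Not given in the sources used here are their versions, the counting tool, the use of strand, cell filters and doublet removal. No doublet caller was run, so cells with markers of a second class were left out as an alternative.

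S100a8 and S100a9 were read by name, and all 4440 deposited cells were kept. The libraries held 144726 to 618090 UMIs. UMIs were summed by tumour and cell type and tested with edgeR 4.0.16 in R 4.3.3. Settings were TMM, filterByExpr, the robust quasi-likelihood test, Benjamini-Hochberg adjustment over all genes tested and a threshold of 0.05. The fit has 1 residual degree of freedom here, to which edgeR adds prior ones from a spread shared over genes. Their median was infinite for neutrophils, T cells, NK cells and the interaction, 15.9 for other myeloid cells and 4.60 for all CD45+ cells. With an infinite prior a gene's own spread between tumours does not enter its p-value. DESeq2 1.42.0, run without edgeR's filter but with its own default filter on low counts, was an alternative. The edgeR fit was also run on simulated counts with known folds and the same dispersion for every gene, and no result here rests on it. Levels in CPM were computed from the deposited counts, and intervals are 95% exact ones. Cells were thinned to 300 UMIs where shares of cells with a UMI were compared, except in the monocyte range. Pearson's r used log2(CPM + 10) over profiles of at least 20 cells and genes with at least 100 UMIs.

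The members and lists were chosen with earlier results of these data known. Named genes are S100a8, S100a9, the 10 most like them in each set of profiles, list members that passed a test and up to 4 examples per list with most UMIs. Cxcl2, Cxcr2, Ly6g, Stfa2l1 and Tlr4, and Retnlg and Mmp9 in other myeloid cells, were picked after their values were seen.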

Additional observations from a re-analysis of the deposited data

How the results depend on the processing

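Settings changed 1 choice at a time, except that DESeq2 also used its own filter on low counts instead of edgeR's. It was given 9409 genes in neutrophils and 12473 in other myeloid cells. The settings were plain library size, library sizes without the 2 genes, DESeq2 and no filter. Others left out shallow cells, cells with markers of a second class, pools or treated tumours, thinned cells to 300 UMIs or took values within a pool. Chosen after the data were seen were leaving out the richest cell of each tumour, other myeloid cells with a UMI of 6 neutrophil genes, and, in the interaction, subsets N1a and N1b and the monocyte range. The log2 treatment differences of the 2 genes and their interactions were compared under these settings. Of these, 136 kept their direction and, where there was a test, their side of the threshold. A further 8 gained the call, 9 lost it, 5 values without a test moved and 2 reversed. Values within a pool or without a treated tumour had no test. Causes were not tested.

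In neutrophils DESeq2 gained both calls, with log2 differences of 2.30 for S100a8 and 2.07 for S100a9. Without anti-CD40 tumour 1 the differences were 1.34 and 1.19 (2.13 and 1.89 with it), with no test. The count of called genes, 12 in all, was 7 with no filter, 7 with thinned cells and 2 without N1a and N1b, and 3 to 25 when a pool was left out.

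In other myeloid cells S100a8 was called with plain library sizes (4.20), with no filter (4.18), with thinned cells (4.33) and without the monocyte range (1.77), and was 2.82 without anti-CD40 tumour 1 (4.15 with it), with no test. S100a9 lost its call without the shallowest 10% of cells (3.30), without cells with markers of a second class (2.87) and without cells with a UMI of 6 neutrophil genes (3.89). It was 4.08 within pool 1, and 2.80 to 3.78 when a pool or treated tumour was left out. The count of calls, 29, was 89 with plain library sizes, 141 with no filter, 14 in DESeq2, 8 without the shallowest cells, 56 with thinned cells, 127 without cells of the 6 genes, 248 without the monocyte range, and 1 to 27 without a pool.

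In T cells DESeq2 lost both calls (4.83 for S100a8 and 7.48 for S100a9, both adjusted p = 0.998). Without a pool or tumour the fitted differences were 4.01 to 5.19 for S100a8 and 6.74 to 8.34 for S100a9, whose untreated count was 0. The count of calls, 39, was 1 in DESeq2, 18 with thinned cells and 19 to 32 without a pool.

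Over all CD45+ cells both genes were called with no filter (5.23 for S100a8 and 4.95 for S100a9). Without a pool or tumour they were 2.78 to 6.04 and 2.65 to 5.74, lowest without anti-CD40 tumour 1. The count of calls, 0, was 10 with plain library sizes, 141 with no filter, 29 in DESeq2, 1 without the shallowest cells, 59 with thinned cells and 0 to 1 without a pool.

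The interaction reversed without the monocyte range, to 0.72 for S100a8 and 0.73 for S100a9, neither called. S100a8 was -2.14 to -0.75 without a pool or tumour. The count of calls, 6, was 1 with no filter, 1 in DESeq2, 3 without cells with markers of a second class, 1 with thinned cells, 2 without the monocyte range and 0 to 28 without a pool.

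Of the levels, 178 moved by less than the spread between libraries and 48 by more; of the ratios, 52 and 8. In NK cells neither gene passed the filter; with no filter edgeR gave 4.02 for S100a8 and 4.48 for S100a9 (both adjusted p = 0.844), and DESeq2 gave 1.73 and 2.21 (both adjusted p = 0.998). The neutrophil comparison rests on 1 untreated tumour with 49 neutrophils and 203 UMIs of S100a8. Treated and untreated tumours could not be paired because each tumour is 1 animal, and shared replicate numbers in the labels mark pools. Only the interaction used the tumour as a block.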
